A study of Homo sapiens with 15 samples.

Results

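The genes described here encode 10 proteins that detect or clear stalled ribosomes: ZNF598, EDF1, ASCC2, ASCC3, PELO, HBS1L, NEMF, LTN1, GTPBP1 and GTPBP2. They were taken by name from an RNA-seq table of 55773 genes; the rule names the genes and sets no threshold on their values. All 10 were in the table, and all 10 passed the filter on low values (at least 10 normalised counts in at least 3 libraries) in both experiments, so none was left out. Their RNA levels were followed across 5 groups of cultured human cells.

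When a ribosome stalls on an mRNA, the next ribosome runs into it. The joint face of the collided pair is recognised by the ubiquitin ligase ZNF598, which marks 40S proteins, and by EDF1, which brings in repressors of further initiation. The ASC-1 complex, with the ubiquitin-binding ASCC2 and the helicase ASCC3, pulls the leading ribosome apart. PELO and its GTPase partner HBS1L split ribosomes that have stopped with an empty A site, for example at the end of a broken mRNA. A 60S subunit that still holds a nascent chain is bound by NEMF, and the ubiquitin ligase LTN1 then marks the chain for degradation. GTPBP1 and GTPBP2 are translational GTPases related to HBS1L that act on paused ribosomes.

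The study asked how the RNA-binding proteins ZC3H7A and ZC3H7B act on mRNA in a way that depends on codons, per its title. For overexpression, doxycycline at 1 µg/mL was given for 24 h to Flp-In T-REx 293 cells, HEK293 cells with a site for an inducible transgene. The transgene was Flag/HA alone (named control below), Flag/HA-ZC3H7A (ZC3H7A) or Flag/HA-ZC3H7B (ZC3H7B), with 3 independent replicates of each. For depletion, ZC3H7A was knocked out and ZC3H7B knocked down by shRNA (DD), and wild-type HEK293 cells with a control shRNA (Parental) were the reference, with 3 samples each. Parental and DD cells were kept in puromycin at 5 µg/mL until 2 passages before collection. Overexpression RNA came from a hypotonic polysome lysate and was made into libraries with the TruSeq RNA v2 kit, whereas a service company prepared the Parental and DD libraries by its own procedure. The sources used here do not say whether the transgenic, knockout or shRNA cells were single clones or pools, nor whether the Parental and DD samples came from separate cultures. The p-values therefore measure only the spread between these samples, which may be technical.

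The 10 coding sequences fell into separate classes by the third base of their codons. LTN1, NEMF, ASCC3 and HBS1L ended 64.62%, 66.73%, 65.12% and 66.67% of their codons in A or T. ZNF598, EDF1, ASCC2, PELO, GTPBP1 and GTPBP2 did so in 20.02%, 26.35%, 30.52%, 31.17%, 28.1% and 30.56% of codons, and the median of 19026 human genes was 39.35%. No member lay between 35% and 60%. The stretches of 25 codons shown are the first in each coding sequence whose share comes closest to that of the whole. They show the difference in 2 pairs of partners, PELO with HBS1L and ASCC2 with ASCC3, and in EDF1 and LTN1, the members with the largest rise and fall when ZC3H7A was overexpressed. They were read 5′ to 3′ from GENCODE 29 transcripts on GRCh38, and capitals mark an A or T at the third position of a codon.
HBS1L: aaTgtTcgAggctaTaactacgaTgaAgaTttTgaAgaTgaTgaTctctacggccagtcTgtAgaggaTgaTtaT
PELO: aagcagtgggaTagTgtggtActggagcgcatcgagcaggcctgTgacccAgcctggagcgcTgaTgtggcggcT
ASCC3: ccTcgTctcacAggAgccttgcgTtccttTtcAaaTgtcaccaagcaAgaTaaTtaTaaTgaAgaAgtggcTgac
ASCC2: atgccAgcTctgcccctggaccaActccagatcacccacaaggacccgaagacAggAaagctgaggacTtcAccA
LTN1: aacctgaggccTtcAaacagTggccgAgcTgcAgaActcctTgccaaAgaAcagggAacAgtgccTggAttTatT
EDF1: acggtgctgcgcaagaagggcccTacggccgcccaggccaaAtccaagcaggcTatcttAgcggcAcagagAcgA
The HBS1L stretch (codons 6 to 30) holds 17 such codons and the PELO stretch (codons 115 to 139) holds 8. ASCC3 has 16 in codons 4 to 28 and ASCC2 has 8 in codons 1 to 25. In LTN1, 16 of the codons 58 to 82 end in A or T, against 7 of the codons 10 to 34 of EDF1.

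Each overexpression library held 45.5 to 57.6 M reads and each depletion library 12.2 to 15.5 M. One member had 1114 to 14491 reads in an overexpression library and 105 to 2789 in a depletion library. Small structured RNAs took 0.000837% to 0.00553% of the reads in the overexpression libraries and 5.6% to 6.58% in the depletion libraries, so levels are compared only within an experiment. ZC3H7A RNA averaged 3258.8 ± 101.9 normalised counts (SD, n = 3) in the control and 11191.6 ± 1492.5 with ZC3H7A. ZC3H7B RNA averaged 5937.8 ± 113.8 in the control and 27142.1 ± 814.7 with ZC3H7B (transgene and endogenous reads are not told apart). The gene that was not overexpressed moved too. ZC3H7A RNA averaged 2032.2 ± 90.0 with ZC3H7B and ZC3H7B RNA 7976.5 ± 508.3 with ZC3H7A, neither overlapping the control. In DD, ZC3H7B was at 999.8, 1168.0 and 1082.7, against 5948.3, 6483.7 and 6958.2 in Parental. ZC3H7A was at 1639.9, 1561.3 and 1771.5 in DD and at 1585.3, 1528.5 and 1684.0 in Parental, and reads over the whole gene do not show whether protein was made. Of 8 markers of HEK293 cells, 8 averaged 10 normalised counts or more in each overexpression group and 7 in Parental and DD. The leukocyte markers PTPRC and CD3E averaged under 1 in all groups. ZC3H7A replicate 3 and Parental replicate 3 stood apart from the other libraries of their groups.

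Overexpression of either protein moved the 10 genes in both directions. LTN1, NEMF, ASCC3 and HBS1L, the members rich in codons ending in A or T, fell with both ZC3H7A and ZC3H7B. ZNF598, EDF1, ASCC2, PELO and GTPBP1 rose with both, and GTPBP2 fell slightly with ZC3H7A. In the doubly depleted cells, ASCC3 and HBS1L rose, ZNF598 fell and the other 7 did not pass the test.

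The counts have to be read against how much of the transcriptome moved. With ZC3H7A, 10 of 10 members passed the test (limma, adjusted p under 0.05), 5 higher and 5 lower, where 75.9% of the 17673 tested genes passed, 34.7% higher and 41.2% lower. With ZC3H7B, 9 of 10 members passed, 5 higher and 4 lower, against 69.6% of all genes, 32% higher and 37.6% lower. Between ZC3H7A and ZC3H7B, 7 of 10 members differed, 2 higher with ZC3H7A and 5 lower, against 44.3% of all genes, 23.9% higher and 20.4% lower. In DD against Parental, 3 of 10 members passed, 2 higher and 1 lower, which is close to the 29.5% of 18494 genes that passed, 14.7% higher and 14.8% lower. The 3 libraries of each group did not overlap for 10, 9, 8 and 4 members in these 4 comparisons, while 77.9%, 77.1%, 49.2% and 43% of all tested genes did not overlap. The median log2 fold change of the members was 0.03, 0.13, -0.16 and 0.03, and that of all genes was -0.07, -0.06, 0.01 and 0.01. Both comparisons with the control use the same 3 control libraries. As the RNA was bulk, less RNA per cell and fewer cells with the RNA cannot be told apart.

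**Figure D1:**
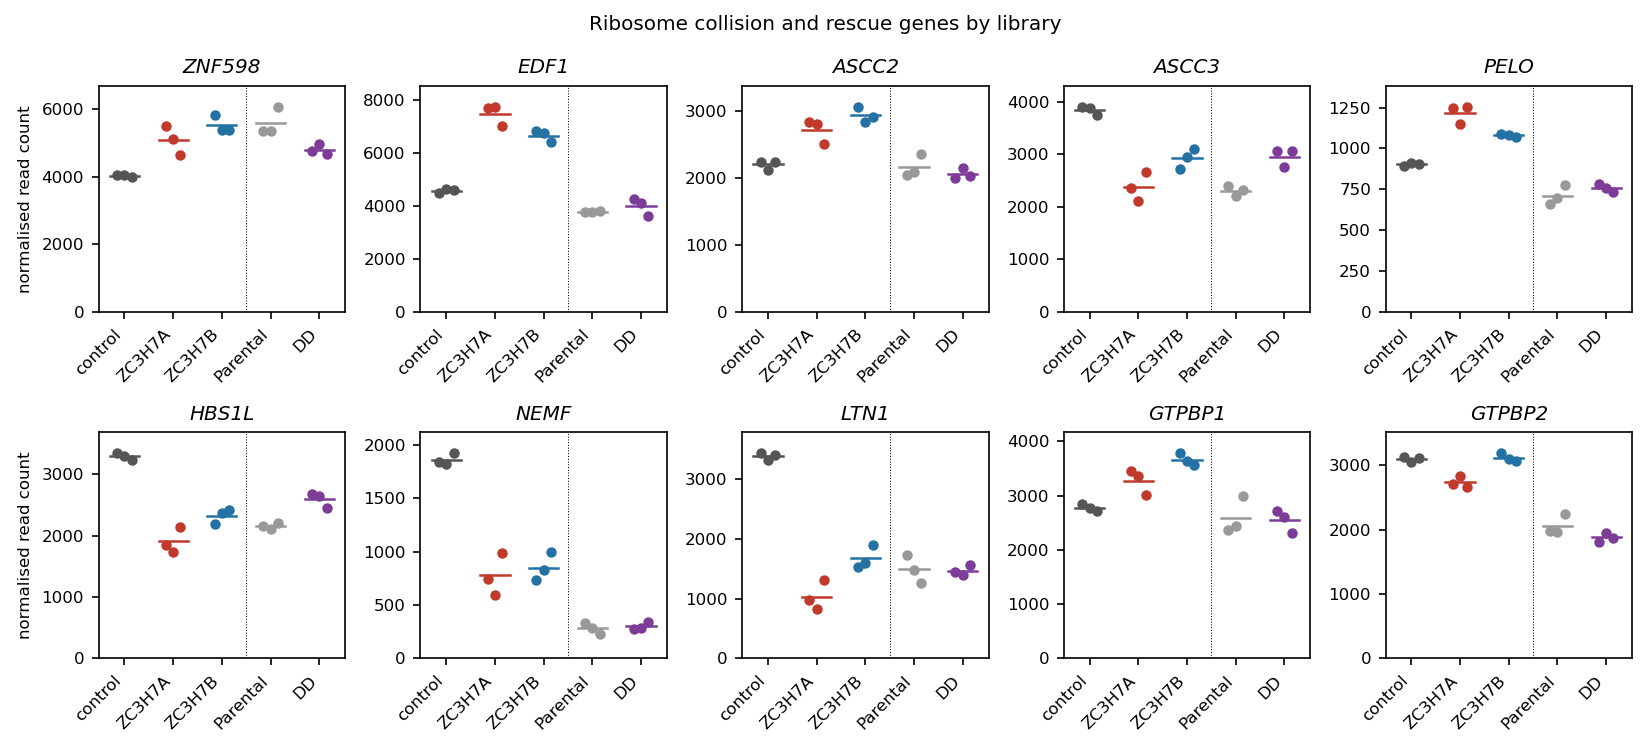
Normalised read counts of the 10 genes in each of the 15 libraries; each panel is a gene, points are libraries, lines are group means, y axes start at 0 and the dotted line separates the experiments. LTN1 lies between 817.5 and 1309.3 in the ZC3H7A libraries, below the control libraries at 3311.9 to 3428.2, and EDF1 lies above its control libraries in all 6 overexpression libraries.

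The sensors of collided ribosomes both rose with overexpression. ZNF598, the ligase that ubiquitylates 40S proteins of the collided pair, stood at 4041.9, 4061.2 and 3986.3 normalised counts in the control libraries. It reached 5502.7, 5109.7 and 4648.0 with ZC3H7A, and 5837.5, 5378.8 and 5392.4 with ZC3H7B. All 6 libraries lay above all control libraries. The log2 fold change was 0.33 ± 0.06 (SE) with ZC3H7A (limma adjusted p = 1.94e-04) and 0.46 ± 0.06 with ZC3H7B (limma adjusted p = 1.86e-05). The difference of -0.12 between them had a 95% interval of -0.25 to 0.00 and did not pass (limma adjusted p = 0.0987).

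EDF1, the small factor that sits at the collision interface, rose the most of the 10. Its control libraries were at 4485.8, 4635.3 and 4594.0 normalised counts. The ZC3H7A libraries were at 7709.1, 7758.3 and 7010.3, and the ZC3H7B libraries at 6821.4, 6755.8 and 6405.6. No library of one group reached into another, with ZC3H7A highest. EDF1 was thus 1.64-fold higher with ZC3H7A (limma adjusted p = 5.83e-08) and 1.46-fold higher with ZC3H7B (limma adjusted p = 8.20e-07). The difference between the overexpressed proteins was a log2 fold change of 0.17 ± 0.05 (limma adjusted p = 0.0106).

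The subunits of the ASC-1 complex moved apart. ASCC2, which binds ubiquitylated ribosomes, had 2240.6, 2120.2 and 2235.7 normalised counts in the control libraries, 2824.8, 2801.7 and 2497.2 in the ZC3H7A libraries and 3062.4, 2832.3 and 2908.6 in the ZC3H7B libraries. Each overexpression library was above each control library, with log2 fold changes of 0.30 ± 0.05 (limma adjusted p = 2.97e-04) and 0.42 ± 0.05 (limma adjusted p = 2.59e-05). ASCC3, the helicase that does the pulling, had 3912.3, 3881.4 and 3758.9 in the control libraries, 2352.1, 2120.1 and 2667.8 in the ZC3H7A libraries and 2719.8, 2950.9 and 3107.7 in the ZC3H7B libraries. It was lower in all 6, by 1.62-fold with ZC3H7A (limma adjusted p = 3.23e-06) and 1.32-fold with ZC3H7B (limma adjusted p = 4.25e-04). ASCC3 was also lower with ZC3H7A than with ZC3H7B (log2 fold change -0.30 ± 0.07, limma adjusted p = 0.0056), whereas ASCC2 differed by -0.12, with a 95% interval of -0.24 to 0.00, and did not pass (limma adjusted p = 0.1).

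PELO and HBS1L, which work as a pair, likewise went opposite ways. PELO, the factor that enters the empty A site, had 893.7, 912.4 and 906 normalised counts in the control libraries, 1245.0, 1148.9 and 1256.0 in the ZC3H7A libraries and 1086.7, 1084.8 and 1072.5 in the ZC3H7B libraries. The groups did not overlap, and the log2 fold change was 0.43 ± 0.05 with ZC3H7A (limma adjusted p = 4.67e-06) and 0.26 ± 0.05 with ZC3H7B (limma adjusted p = 3.73e-04). HBS1L, the GTPase that delivers PELO, had 3349.3, 3298.1 and 3237.4 in the control libraries, 1855.6, 1741.1 and 2144.9 in the ZC3H7A libraries and 2190.1, 2378.5 and 2421.5 in the ZC3H7B libraries. Again no groups overlapped. HBS1L was 1.73-fold lower with ZC3H7A (limma adjusted p = 6.15e-07) and 1.42-fold lower with ZC3H7B (limma adjusted p = 3.66e-05). The HBS1L gene also makes a short SKI7-like isoform that links the exosome to the SKI complex, and the gene-level counts do not separate it. PELO shares 475 exon bases, 10.92% of its exons, with ITGA1 on the same strand in GENCODE 29. ITGA1 itself fell with both proteins (log2 fold change -0.83 with ZC3H7A and -1.59 with ZC3H7B).

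The largest falls were in the pair that handles the split 60S subunit. LTN1, the ligase that marks the stalled chain, had 3428.2, 3311.9 and 3399.2 normalised counts in the control libraries, 973, 817.5 and 1309.3 in the ZC3H7A libraries and 1528.8, 1599.8 and 1894.9 in the ZC3H7B libraries. The 3 groups were fully separate, with ZC3H7A lowest. LTN1 was 3.33-fold lower with ZC3H7A (log2 fold change -1.74 ± 0.13, limma adjusted p = 2.22e-07) and 2.03-fold lower with ZC3H7B (-1.02 ± 0.13, limma adjusted p = 2.56e-05). It was also 1.64-fold lower with ZC3H7A than with ZC3H7B (limma adjusted p = 9.32e-04). NEMF, which holds the 60S subunit and extends the chain with C-terminal residues, had 1837.8, 1817.9 and 1921.5 in the control libraries, 746, 596.4 and 989.5 in the ZC3H7A libraries and 731.3, 823.8 and 995.5 in the ZC3H7B libraries. Both overexpression groups lay below the control and overlapped each other. NEMF was 2.44-fold lower with ZC3H7A (limma adjusted p = 7.45e-06) and 2.2-fold lower with ZC3H7B (limma adjusted p = 2.76e-05). The difference between the overexpressed proteins was -0.15 on the log2 scale, with a 95% interval of -0.48 to 0.18 (limma adjusted p = 0.453), but -0.34 without ZC3H7A replicate 3 (limma adjusted p = 0.0107). NEMF shares 31.93% of its exon bases with KLHDC2 on the opposite strand in GENCODE 29. The sources used here do not give the strand setting of the counting, so reads of the shared stretch may be assigned to either gene or to neither. KLHDC2 fell with both (log2 fold change -0.33 with ZC3H7A and -0.36 with ZC3H7B).

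GTPBP1 and GTPBP2, paralogous GTPases of the HBS1L family, behaved differently. GTPBP1 had 2837.6, 2780.1 and 2712.2 normalised counts in the control libraries, 3446.3, 3366.5 and 3004.1 in the ZC3H7A libraries and 3784.0, 3639.9 and 3563.6 in the ZC3H7B libraries. It was higher in all 6 overexpression libraries, by 0.23 ± 0.05 (limma adjusted p = 0.00144) and 0.40 ± 0.05 (limma adjusted p = 2.84e-05) on the log2 scale. GTPBP2 had 3130.2, 3048.6 and 3121.0 in the control libraries, 2715.1, 2838.6 and 2667.2 in the ZC3H7A libraries and 3192.6, 3106.1 and 3061.9 in the ZC3H7B libraries. Its ZC3H7A libraries were the lowest and its ZC3H7B libraries overlapped the control. GTPBP2 was 1.13-fold lower with ZC3H7A (limma adjusted p = 0.00142). With ZC3H7B its log2 fold change was 0.01, with a 95% interval of -0.08 to 0.10 (limma adjusted p = 0.846). The difference of -0.19 ± 0.04 between the overexpressed proteins passed (limma adjusted p = 0.00239). GTPBP1 shares 8.33% of its exon bases with SUN2 on the opposite strand, and SUN2 passed the test in none of the 4 comparisons.

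**Figure D2:**
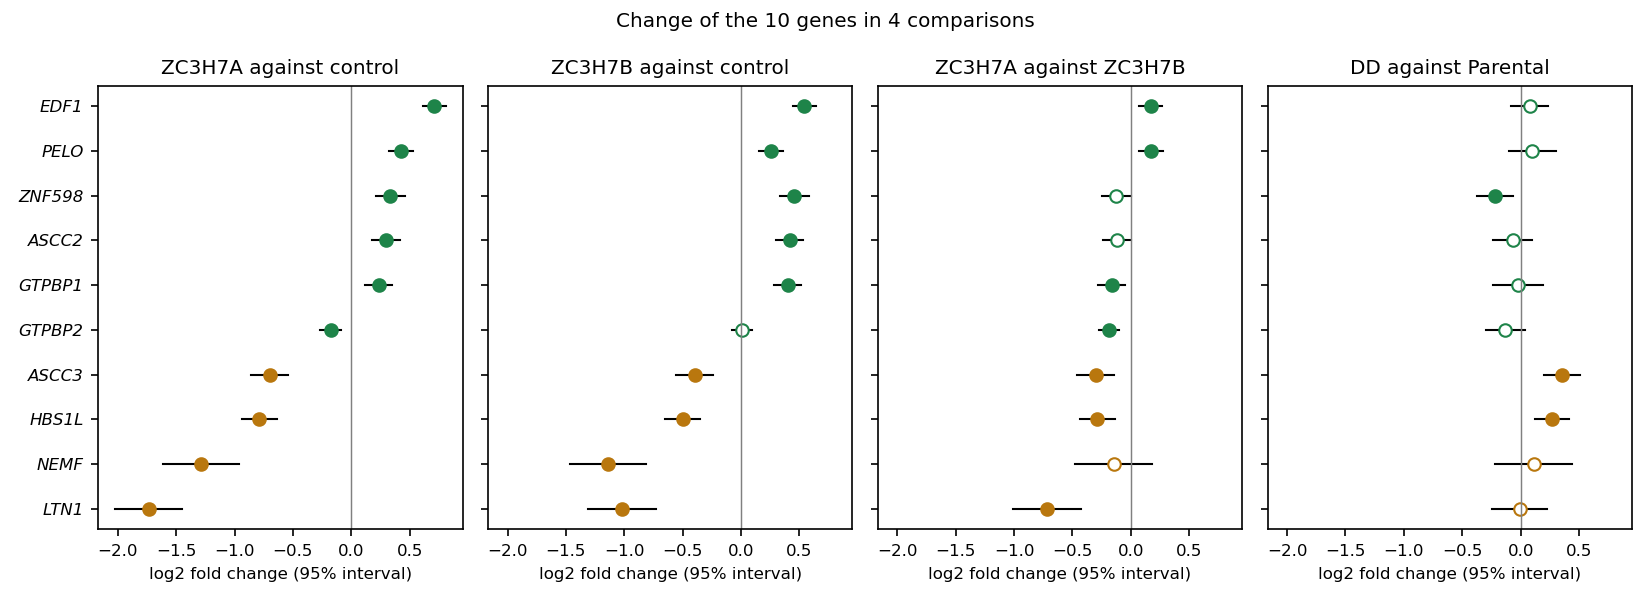
Log2 fold change of each gene (point) with its 95% interval (line) in 4 comparisons; filled points passed the test at an adjusted p under 0.05, orange marks the 4 genes with 60% or more of codons ending in A or T and green the other 6. The orange genes lie left of 0 in both comparisons with the control, LTN1 farthest at -1.74 with ZC3H7A, and in DD against Parental ASCC3 and HBS1L lie right of 0 and ZNF598 left of it.

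In the depleted cells the changes were small. ASCC3 had 2398.0, 2211.3 and 2328.9 normalised counts in Parental and 3058.2, 2755.4 and 3058.5 in DD, where each library was higher (1.28-fold, limma adjusted p = 0.00302). HBS1L had 2158.2, 2102.9 and 2204.7 in Parental and 2685.2, 2644.0 and 2458.2 in DD, again without overlap (1.2-fold, limma adjusted p = 0.0111). Both rose in DD and fell with each overexpressed protein. ZNF598 was at 5355.4, 5344.7 and 6075.9 in Parental and at 4754.9, 4972.9 and 4669.9 in DD, and was 1.16-fold lower (limma adjusted p = 0.0347). That call was lost when Parental replicate 2 (limma adjusted p = 0.0513) or DD replicate 1, 2 or 3 (limma adjusted p = 0.117, 0.0617 and 0.125) was left out. The HBS1L call was lost without DD replicate 1 (limma adjusted p = 0.0637) or DD replicate 2 (limma adjusted p = 0.0502). LTN1 had 1729.6, 1469.3 and 1259.2 in Parental and 1441.1, 1390.7 and 1567.2 in DD, all DD libraries within the Parental range. Its log2 fold change was -0.01, with a 95% interval of -0.24 to 0.22. NEMF had 330.8, 286 and 228.7 in Parental and 276.5, 289 and 343.3 in DD, with overlap (log2 fold change 0.11, 95% interval -0.22 to 0.44). EDF1, ASCC2, PELO, GTPBP1 and GTPBP2 had log2 fold changes of 0.08, -0.07, 0.10, -0.02 and -0.13 and did not pass. KLHDC2, which overlaps NEMF, rose by 0.35 in DD.

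Per kilobase of merged exons in GENCODE 29, EDF1 was the most abundant of the 10 in the control, at 3809.7 ± 64.3 normalised counts per kilobase (SD, n = 3). ZNF598 followed at 857.2 ± 8.3, then GTPBP2 at 670.4 ± 9.7, ASCC2 at 406 ± 13 and LTN1 at 380.8 ± 6.8. GTPBP1, at 340 ± 7.7, and ASCC3, at 328.3 ± 6.9, overlapped between libraries; no other neighbours in this order did. HBS1L was at 296.9 ± 5.0, PELO at 207.9 ± 2.2 and NEMF was lowest at 197.2 ± 5.8. The length of NEMF includes the 31.93% of its exon bases shared with KLHDC2, where reads may be assigned to neither gene. How far its place depends on this was not tested. In Parental, EDF1 and ZNF598 were again highest and NEMF lowest, at 3155.7 ± 17.7, 1189.5 ± 89.2 and 29.9 ± 5.4 per kilobase. There GTPBP2 overlapped ASCC2, ASCC3 overlapped HBS1L, HBS1L overlapped LTN1 and LTN1 overlapped PELO.

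Because several members work in pairs, the log2 ratio of each pair was taken within each library, which removes the scaling of the library. Over 5 ratios and 4 comparisons, 20 exact permutation tests (two-sided) were made; with 3 libraries against 3 the smallest possible p is 0.1, which adjusted over the 20 is 0.125, so none can pass 0.05. The ratio of PELO to HBS1L was -1.90, -1.85 and -1.84 in the control libraries. With ZC3H7A it was -0.58, -0.60 and -0.77. The ZC3H7B libraries had -1.01, -1.13 and -1.17. PELO relative to HBS1L was thus 2.32-fold higher with ZC3H7A and 1.69-fold higher with ZC3H7B than in the control (exact p = 0.1 for each). In DD the same ratio was 1.12-fold lower than in Parental, with no overlap. ASCC2 relative to ASCC3 rose from -0.81 ± 0.06 in the control to 0.19 ± 0.26 with ZC3H7A and 0.01 ± 0.14 with ZC3H7B (SD, n = 3), and was -0.10 ± 0.12 in Parental and -0.52 ± 0.14 in DD. In each experiment its groups did not overlap, apart from ZC3H7A and ZC3H7B. Both pairs join a gene with under 35% of codons ending in A or T to a gene with 60% or more. All tested genes under 35% had a median log2 fold change of 0.33 with ZC3H7A and 0.20 with ZC3H7B. Those at 60% or more had -0.65 and -0.52. A ratio within a library does not remove this difference between the classes. GTPBP1 relative to GTPBP2 was 1.33-fold higher with ZC3H7A and 1.31-fold higher with ZC3H7B. LTN1 relative to NEMF was 1.36-fold lower with ZC3H7A and 1.09-fold higher with ZC3H7B, both without overlap with the control. ZNF598 relative to EDF1 was 1.3-fold lower with ZC3H7A, 1.06-fold lower with ZC3H7B and 1.23-fold lower in DD.

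**Figure D3:**
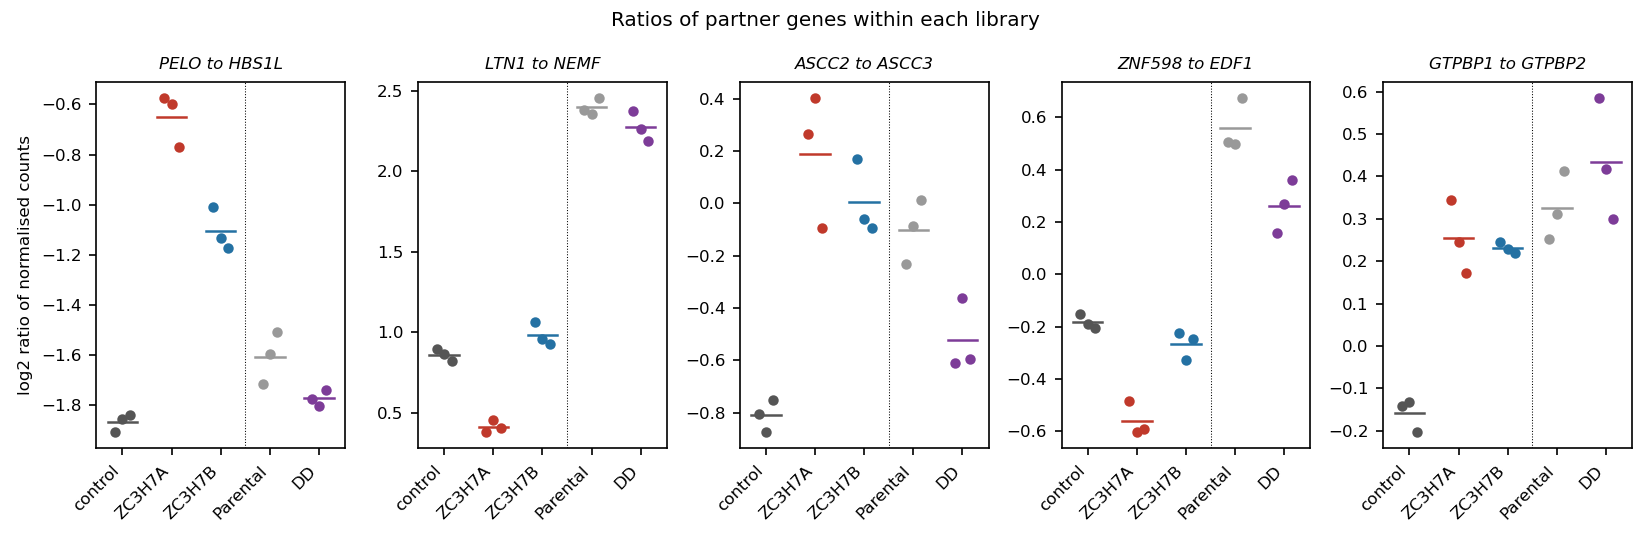
Log2 ratio of the normalised counts of partner genes in each library (points) with group means (lines), 1 panel per pair; the dotted line separates the experiments and the y axes differ. PELO relative to HBS1L lies between -0.77 and -0.58 in the ZC3H7A libraries, above the control libraries at -1.90 to -1.84.

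The direction of the members followed the codon classes described above. The genes were taken by name, but with earlier results of these data known. All 4 members with 60% or more of codons ending in A or T fell with ZC3H7A and with ZC3H7B, and of the 6 members under 35%, 5 rose with each. These bounds were chosen after the values had been seen. The whole table showed the same trend: of 2254 tested genes at 60% or more, 83.9% fell with ZC3H7A and 76.8% with ZC3H7B, and of 5683 genes under 35%, 61.2% and 53.2% rose. Across 11620 genes averaging 100 or more in either group, the Spearman correlation of this share with the log2 fold change was -0.605 with ZC3H7A, and across 11544 genes it was -0.541 with ZC3H7B. In DD against Parental it was 0.062 across 11471 genes; genes of a library share its depth and base composition, and these values are descriptions. Against genes of like composition, the members differed among themselves. EDF1, at 0.71 with ZC3H7A, lay above the upper quartile of 0.61 of genes with shares of 25% to 30%. ASCC3 and HBS1L, at -0.70 and -0.79, lay between the quartiles of -1.10 and -0.46 of genes at 65% to 70%. NEMF, at -1.29, lay below that lower quartile, and LTN1, at -1.74, lay below the lower quartile of -0.80 of genes at 60% to 65%. With ZC3H7B, NEMF at -1.14 lay below the lower quartile of -0.93 and LTN1 at -1.02 below that of -0.75. GTPBP2, at -0.18 with ZC3H7A, lay below the lower quartile of -0.04 of genes at 30% to 35%.

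**Figure D4:**
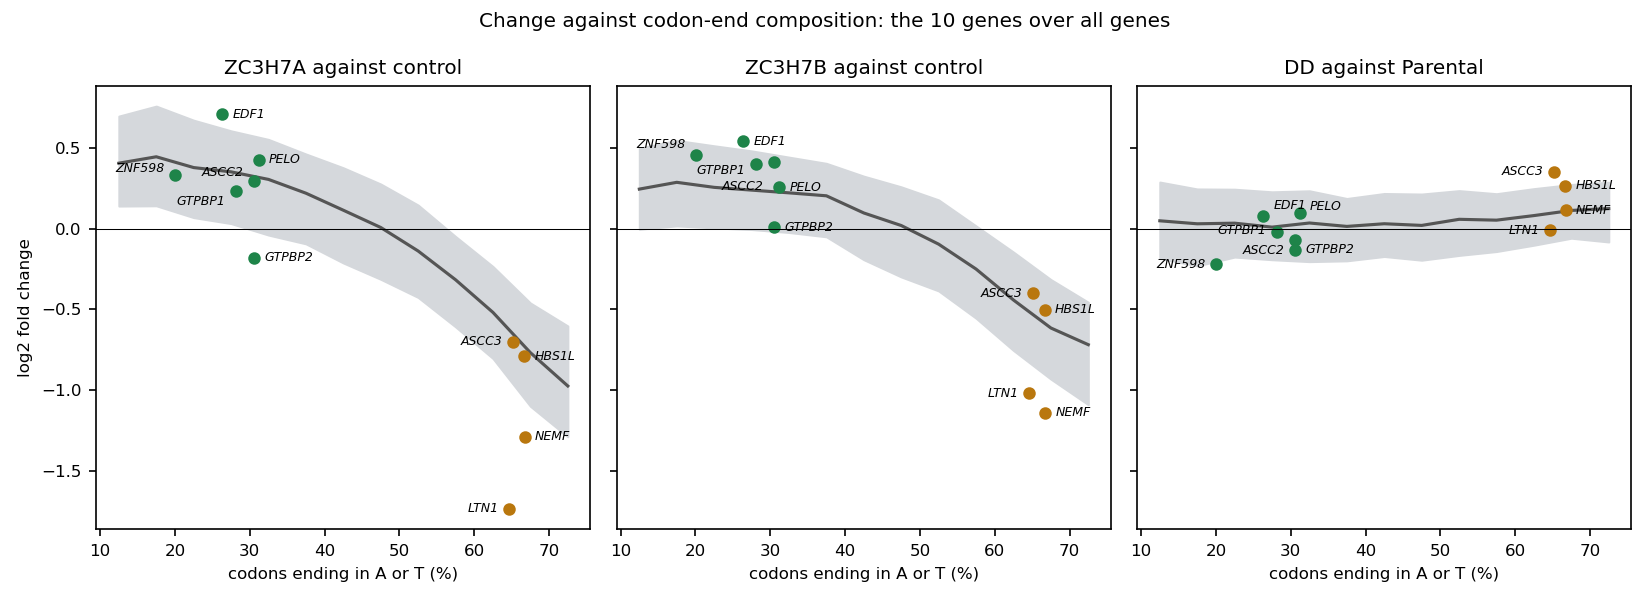
Log2 fold change against the percentage of codons ending in A or T in 3 comparisons; the line is the median and the band the quartiles of tested genes with a mean of at least 100, in steps of 5 percentage points, and labelled points are the 10 genes. The line falls from left to right with ZC3H7A and ZC3H7B but not in DD against Parental, and LTN1 and NEMF lie below the band in both overexpression panels.

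The libraries differed in how strongly this trend showed. Relative to the control mean, the median log2 value of genes at 60% or more minus that of genes under 35% was -1.12 and -1.17 in ZC3H7A replicates 1 and 2 and -0.70 in replicate 3. In the ZC3H7B libraries it was -0.90, -0.77 and -0.66. LTN1, NEMF, ASCC3 and HBS1L were each highest in ZC3H7A replicate 3 within their group. ZNF598, EDF1, ASCC2 and GTPBP1 were each lowest there, so these 8 members were nearest the control in the library with the smallest shift. PELO and GTPBP2 were not: at 1256.0 and 2667.2 they were farthest from the control in that library. ZC3H7A RNA itself was highest in that library, at 12898.3. Without that library, 10 of 10 members still passed with ZC3H7A, where 78.48% of 17526 tested genes passed. LTN1 then had a log2 fold change of -1.92 and NEMF of -1.48.

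Removing the trend with base composition from every library changed part of the calls. When the trend with the A+T share of the transcript was removed, LTN1 and NEMF remained lower with ZC3H7A, at -0.89 (limma adjusted p = 2.12e-11) and -0.48 (limma adjusted p = 2.56e-06). EDF1 and PELO remained higher, at 0.46 (limma adjusted p = 2.31e-10) and 0.61 (limma adjusted p = 1.34e-10). ASCC3 was then at -0.10 and still lower (limma adjusted p = 0.00977), but HBS1L was at -0.03 and no longer passed (limma adjusted p = 0.432), nor did ZNF598 at -0.0030 or GTPBP1 at 0.016. With ZC3H7B, LTN1 was at -0.20 and NEMF at -0.37, both still lower, while ASCC3 and HBS1L turned to 0.14 and 0.21, both now higher (limma adjusted p = 0.00127 and 5.37e-05). Removing the trend with codons ending in A or T, an alternative added after the data had been seen, left LTN1 at -0.98 and NEMF at -0.44 with ZC3H7A and at -0.41 and -0.46 with ZC3H7B. ASCC3 and HBS1L were then at 0.075 and 0.057 with ZC3H7A, neither passing. With ZC3H7B they turned to 0.23 and 0.18, both now higher (limma adjusted p = 6.99e-05 and 0.00117). The span from the lowest to the highest member with ZC3H7A shrank from 2.45 to 1.49 and 1.51 under these alternatives. LTN1 and NEMF kept their calls as lower with both proteins under both alternatives, and HBS1L kept neither of its calls as lower under either. In DD, ASCC3 stayed higher under both, at 0.32 and 0.28, and HBS1L no longer passed, at 0.23 and 0.19 (limma adjusted p = 0.0646 and 0.134).

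**Figure D5:**
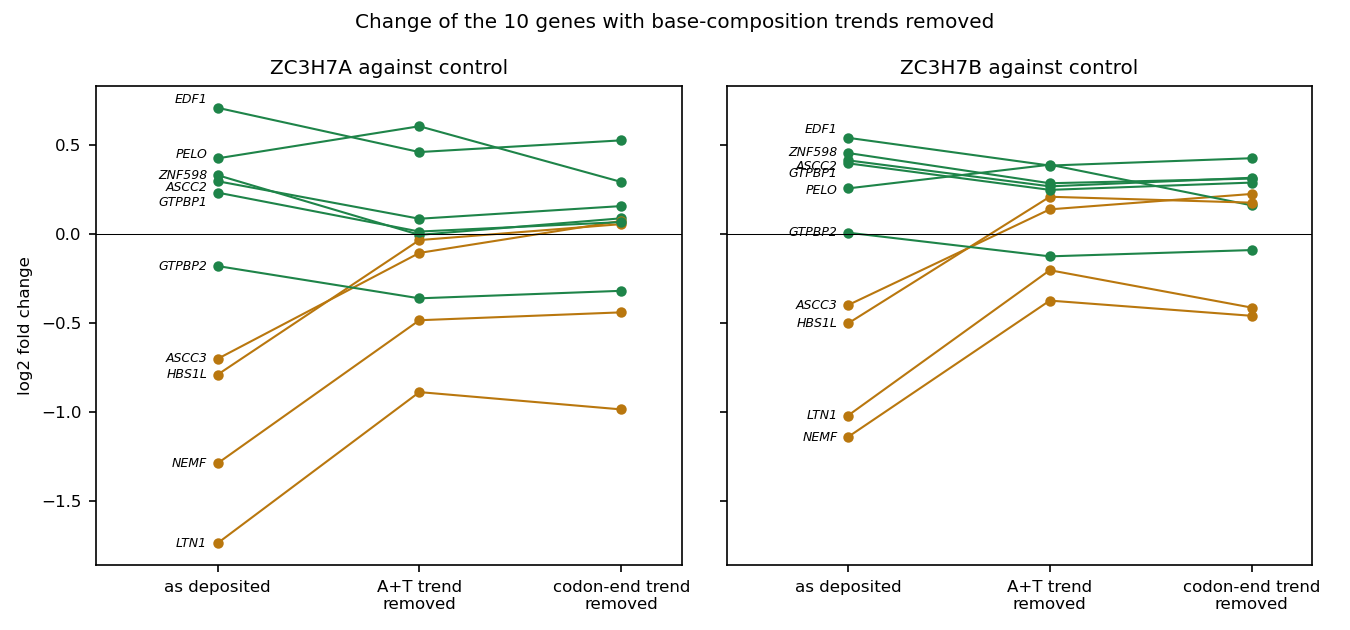
Log2 fold change of the 10 genes from the deposited values and after the trend with transcript A+T share, or with codons ending in A or T, was removed from every library; orange marks the 4 genes with 60% or more of such codons. With ZC3H7A, LTN1 moves from -1.74 to -0.89 and -0.98 and stays the lowest, while ASCC3 and HBS1L move close to 0. With ZC3H7B, NEMF is the lowest throughout. ASCC3 and HBS1L move above 0 there, to 0.14 and 0.21 without the A+T trend and 0.23 and 0.18 without the codon-end trend.

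LTN1 had the largest change against the control, and the 5 genes with a mean of at least 100 whose log2 values were most correlated with it over the 9 overexpression libraries were C12orf23, MORC3, PHF6, RAD50 and ELK3. Pearson's r was 0.9982, 0.9979, 0.9977, 0.9973 and 0.9973. In C12orf23, MORC3, PHF6 and RAD50, 62.93%, 64.32%, 69.67% and 64.1% of codons ended in A or T, as in LTN1, but in ELK3 the share was 28.99%. The 9 libraries share their groups, so a high r is common among genes that changed.

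Genes of proteins that act around these 10 were counted from lists, each with its median log2 fold change. The medians of all genes were -0.07 with ZC3H7A and -0.06 with ZC3H7B. Of all tested genes, 34.7% rose and 41.2% fell with ZC3H7A, and 32% rose and 37.6% fell with ZC3H7B. Among 13 ligases, deubiquitylases and scaffold genes of collided 40S subunits, 6 rose and 4 fell with ZC3H7A (median 0.09) and 7 rose and 6 fell with ZC3H7B (median 0.13). RNF10, a ligase for 40S proteins, rose by 0.62 and 0.50, and RACK1 (listed as GNB2L1), a 40S scaffold protein at the collision interface, rose by 0.47 with each and had a log2 fold change of -0.58 in DD, where it fell. Of the ASC-1 complex partners of ASCC2 and ASCC3, ASCC1 rose by 0.17 with ZC3H7B, and neither of the 2 passed with ZC3H7A (medians -0.09 with ZC3H7A and 0.13 with ZC3H7B). In DD, TRIP4, another subunit, rose by 0.45 (limma adjusted p = 0.0486), with overlap between its DD and Parental libraries. ASCC3 rose in DD too, but ASCC1 and ASCC2 did not pass there, with ASCC2 at -0.07. For release and degradation of the stalled chain, downstream of NEMF and LTN1, 4 of 9 tested genes rose and 3 fell with each protein (medians 0.09 and -0.06), and VCP, the ATPase that extracts the marked chain, rose by 0.65 and 0.55. Of 3 SKI complex genes, which work beside PELO and HBS1L in degrading broken mRNAs, SKIV2L and WDR61 rose, by 0.28 and 0.13 with ZC3H7A and by 0.37 and 0.14 with ZC3H7B. TTC37, the third, fell, with log2 fold changes of -1.21 and -1.02 (medians of the 3 were 0.13 and 0.14).

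Of 7 genes for termination and recycling, 5 fell with each protein (medians -0.35 and -0.23), and ABCE1, which splits ribosomes after PELO, had log2 fold changes of -0.93 with ZC3H7A and -0.64 with ZC3H7B. Of 8 genes for collision stress signalling, 3 rose with each, 4 fell with ZC3H7A and 5 with ZC3H7B (medians -0.14 and -0.27), and IMPACT was among those that fell (-1.11 and -1.08). Of 4 genes that repress or cut the stalled mRNA, 3 fell with ZC3H7A, and with ZC3H7B 2 rose and 1 fell (medians -0.34 and -0.01). Among them N4BP2, which cuts mRNA at stalled ribosomes in its worm and yeast relatives, had log2 fold changes of -1.47 and -2.12. GIGYF2, a repressor that EDF1 brings in, was lower with ZC3H7A than with ZC3H7B (log2 fold change -0.58, limma adjusted p = 2.30e-07). Of 5 mitochondrial rescue genes, 2 rose and 3 fell with each (medians -0.44 and -0.24). In DD, where 14.7% of all tested genes rose and 14.8% fell, 1 of 10 genes for release of the chain rose. For the 13 genes of collided 40S subunits 2 rose and 2 fell, for termination 3 rose and 1 fell, and for stress signalling 1 rose and 2 fell. In the lists of repression and of mitochondrial rescue, 1 gene each fell, and the 3 SKI complex genes had a median of 0.12 and did not pass. By codon class, all 14 list genes at 60% or more fell with both ZC3H7A and ZC3H7B, and of 8 under 35%, 6 rose with each, to be read beside the shares of all genes in these classes given above. The other 29 tested lay between 35% and 60%, where no member lies, and went both ways. With ZC3H7A 11 rose and 7 fell, and with ZC3H7B 16 rose and 9 fell. Of all 5677 tested genes in that class, 34.1% rose and 43.4% fell with ZC3H7A. With ZC3H7B, 34.8% of them rose and 39.9% fell. In DD, 2 of the 14 (14.3%) rose and the other 12 did not pass, where 20.6% of 2222 genes at 60% or more rose and 9.68% fell, so the share was no higher than that of all such genes.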

How the data were processed

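RNA-seq of 15 libraries in 5 groups was used as 1 table of normalised counts. The tools named in the submitters' processing notes are HTSeq, DESeq2 and STAR 2.7.10b, and the genome is hg19. Settings, annotation and the strand used in counting are not stated there. The deposited values are a signal in which the authors divided whole reads by a factor per library: in each library 100% of values lay within 0.01 reads of a whole multiple. Library totals were 12.2 to 57.6 M reads.

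Values plus a pseudocount of 1 were log2 transformed and tested with limma 3.58.1 (R 4.3.3, empirical Bayes moderation with a mean-variance trend) over genes with at least 10 in at least 3 libraries, and Benjamini-Hochberg adjusted p under 0.05 over all tested genes (two-sided) was called. Log2 fold changes are on this scale. The 9 overexpression libraries shared 1 fit, and the 6 depletion libraries another. The whole reads were tested too with edgeR 4.0.16, which called 13350, 12413, 7705 and 5479 genes in the 4 comparisons, and with DESeq2 1.42.0. Ratios were tested by exact permutation (scipy 1.17.1). The limma step was tested on simulated data.

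Codon and A+T shares come from the longest complete coding sequence and transcript of each gene in GENCODE 29 (GRCh38), matched by symbol; no coordinates were taken from it. Of the table's names, 34274 matched a current symbol and 1337 an older one. Named genes were all members, ZC3H7A, ZC3H7B, genes overlapping a member, up to 3 called genes per list and comparison with the lowest adjusted p, and the 5 genes most like the member with the largest change. The members and lists were chosen with earlier results of these data known. Alternatives were other pseudocounts, no filter, TMM and upper quartile scaling, edgeR, DESeq2, a replicate block, removal of base-composition trends, fits on only the 2 groups compared and leaving out each library. The level of 1 other marker gene is not reported here.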

Additional observations from a re-analysis of the deposited data

How the results depend on the processing

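Directions of the members in both comparisons with the control held under other pseudocounts, no filter, TMM, upper quartile scaling, edgeR, DESeq2 and fits on only the 2 groups compared. Removing the A+T trend turned ZNF598 with ZC3H7A to -0.0030, and ASCC3, HBS1L and GTPBP2 with ZC3H7B to 0.14, 0.21 and -0.12. Removing the codon-end trend turned ASCC3 and HBS1L with ZC3H7A to 0.075 and 0.057, the same genes with ZC3H7B to 0.23 and 0.18, GTPBP2 with ZC3H7B to -0.089 and NEMF between the overexpressed proteins to 0.019. It turned the ratio of PELO to HBS1L with ZC3H7B to -0.015 and that of ASCC2 to ASCC3 between the overexpressed proteins to -0.0075. With ZC3H7A, 3 members were higher without the A+T trend, and 6 were called, 3 higher and 3 lower, without the codon-end trend. Of all 17673 genes, 74.13% and 74.37% were called with ZC3H7A under these settings, 7255 and 7300 higher and 5846 and 5843 lower. In DD 1 member was higher under either, where 32.23% and 30.34% of all 18494 genes were called, 2860 and 2599 of them higher. Between the overexpressed proteins, 1 member was higher under upper quartile scaling, where 3559 of 17673 genes were higher. Over all genes, removing the A+T trend turned the ZC3H7B split from 5648 higher and 6647 lower to 6927 and 5285.

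Leaving out 1 library at a time gave 1 to 3 members called in DD, 1 to 2 higher and 0 to 1 lower. The share of all genes called in DD then ran from 19.59% (without DD replicate 1) to 37.63% (without Parental replicate 3). Between the overexpressed proteins 1 to 2 members were higher. Of all genes, from 3487 of 17616 (without ZC3H7B replicate 2) to 4857 of 17526 (without ZC3H7A replicate 3) were then higher. Some members that were not called changed sign: GTPBP2 with ZC3H7B ranged from -0.0074 to 0.023, NEMF between the overexpressed proteins from -0.34 to 0.027, and in DD LTN1 from -0.12 to 0.11, NEMF from -0.028 to 0.24 and GTPBP1 from -0.084 to 0.085. The ratio of GTPBP1 to GTPBP2 between the overexpressed proteins ranged from -0.022 to 0.064. Between the overexpressed proteins, the GTPBP1 call was lost without ZC3H7B replicate 1 or 2 (limma adjusted p = 0.0865 and 0.0616), and the EDF1 call without ZC3H7B replicate 3 (0.0534) or under upper quartile scaling (0.0553). ASCC2 passed under TMM scaling (limma adjusted p = 0.0489) and with edgeR (0.0488), and ZNF598 without ZC3H7A replicate 1 (0.0202). Without DD replicate 1, 1561 genes rose and 2002 fell in DD, against 2716 and 2732.

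Replicate numbers are shared between groups, but the labels give them no shared source and not every same-numbered pair deviated together, so they were not taken as pairs. The correlations of deviations were 0.54, 0.08 and 0.72 between ZC3H7A and ZC3H7B, -0.16 to 0.13 between the control and either, and -0.27 to -0.01 between Parental and DD. With the replicate number as a block, ZNF598 in DD stayed at -0.22 but was not called (limma adjusted p = 0.0852). This left 0 members lower in DD, where 2374 of 18494 genes were lower. ZNF598 passed between the overexpressed proteins with the block (limma adjusted p = 0.0436). With the block and the A+T trend removed together, ZNF598 with ZC3H7A was at -0.0030, and ASCC3, HBS1L and GTPBP2 with ZC3H7B were at 0.14, 0.21 and -0.12. In that setting 3 members were higher with ZC3H7A, where 7320 of 17673 genes were higher. In DD 1 member was higher there, as were 2473 of 18494 genes. No other member call changed with the block alone. The cause of these changes was not tested.

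With 105 to 2789 reads for a member in a depletion library, counting error is larger there than in the overexpression libraries.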
